A study of Homo sapiens with 6 samples.

Results

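Among the 59087 rows of the count table of 6 HEK293T libraries, 1247 have a symbol that ends in -AS and a digit, the usual name of a gene annotated as antisense to the gene whose symbol comes before the hyphen. The 264 rows described here are those with a mean raw count of 200 or more over the 6 libraries, and each is read together with its partner, the gene named in the symbol. Of 289 rows at or above that count, 25 were set aside by symbol, 17 of them HOX or ZNF rows and 8 single named rows, and 219 rows of this name pattern had no reads. The mean counts that chose the rows are therefore a description and are not tested. All 264 passed the filter on low counts, and 364 further rows of the name pattern below the count threshold passed it too. The 3 rows just inside the threshold were SEMA6A-AS2 with 206.5 reads, CFLAR-AS1 with 206.2 and TPT1-AS1 with 204.8. Rows just outside it included PRKCZ-AS1 with 197.7 reads and TMEM246-AS1 with 196.3.

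HEK293T is an aneuploid line from human embryonic kidney that carries the SV40 large T antigen. Total RNA was sequenced from knockout line KO1 (genotype THUMPD2 KO#1), knockout line KO2 (THUMPD2 KO#2) and wild type (WT), with 2 libraries in each group and no other treatment named in the labels. THUMPD2 is an RNA methyltransferase of the U6 spliceosomal RNA, and the study asked which genes and splicing events differ after its loss. With 1 WT line, the loss of THUMPD2 and any other way in which a line departs from WT cannot be told apart. The labels do not state that libraries of 1 group are separate cultures. The p-values thus rest on the spread among these libraries alone, and that spread may be technical.

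An antisense gene is read from the DNA strand opposite to its partner, and the 2 genes can meet head to head at their starts, tail to tail at their ends, or lie inside one another. Some antisense transcripts are made from a shared, bidirectional promoter, and a few are known to act on the partner, for example by covering its messenger RNA or by altering its chromatin. A strand-specific library keeps the strand of each fragment, so that the reads of the antisense gene and of its partner can be counted apart if the counting uses the right strand. The strand setting of the counting is not given in the sources used here. Reads in a row may therefore stem from its own transcript or from partner exons on the other strand, and these counts cannot tell the sources apart. A row said below to rise or fall is a statement on that row and not on the antisense transcript or its partner.

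Where a partner starts inside its antisense row, the same bases belong to both genes. RefSeq promoter windows (GRCh38.p14, 250 bases before to 50 after a start) were found for the partners of 204 rows, and in 65 of these rows a window held bases of the antisense row's exons in GENCODE v29. In 31 rows a window lay wholly within such exons. The windows of 4 members whose changes are described below, each with more than 200 bases in the exons of its antisense row, are shown to make this sharing visible. They are written in the partner's direction, and capitals mark the bases after the partner's start that also lie in the antisense row's exons on the other strand. The OXCT1 window is chr5:41870376-41870675 on the minus strand, the BTG3 window chr21:17612852-17613151 on the minus strand, the NNT window chr5:43602930-43603229 on the plus strand and the GATA6 window chr18:22169339-22169638 on the plus strand.
OXCT1: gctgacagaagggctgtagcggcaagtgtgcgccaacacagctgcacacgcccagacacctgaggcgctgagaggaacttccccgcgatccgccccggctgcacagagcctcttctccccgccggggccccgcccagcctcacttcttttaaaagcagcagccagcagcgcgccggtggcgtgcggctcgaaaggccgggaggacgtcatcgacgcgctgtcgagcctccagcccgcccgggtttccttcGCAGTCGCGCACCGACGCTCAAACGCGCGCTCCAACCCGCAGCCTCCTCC
BTG3: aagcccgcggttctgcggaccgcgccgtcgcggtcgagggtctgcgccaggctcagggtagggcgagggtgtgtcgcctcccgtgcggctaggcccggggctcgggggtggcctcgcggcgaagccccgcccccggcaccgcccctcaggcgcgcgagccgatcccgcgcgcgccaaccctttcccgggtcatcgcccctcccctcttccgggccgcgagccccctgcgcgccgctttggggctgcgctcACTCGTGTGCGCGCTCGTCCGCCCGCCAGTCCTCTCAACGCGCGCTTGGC
NNT: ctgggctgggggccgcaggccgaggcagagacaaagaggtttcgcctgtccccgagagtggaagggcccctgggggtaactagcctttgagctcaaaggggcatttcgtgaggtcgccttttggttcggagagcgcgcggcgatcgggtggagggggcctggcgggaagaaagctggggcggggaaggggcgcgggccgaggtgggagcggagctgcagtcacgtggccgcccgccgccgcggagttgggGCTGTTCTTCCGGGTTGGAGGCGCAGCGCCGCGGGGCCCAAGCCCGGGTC
GATA6: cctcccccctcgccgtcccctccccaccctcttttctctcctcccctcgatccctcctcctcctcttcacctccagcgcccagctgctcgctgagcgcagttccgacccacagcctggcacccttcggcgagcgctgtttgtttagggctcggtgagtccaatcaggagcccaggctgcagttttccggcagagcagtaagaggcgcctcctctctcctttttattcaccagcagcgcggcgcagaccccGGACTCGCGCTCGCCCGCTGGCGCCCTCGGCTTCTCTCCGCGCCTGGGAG
In OXCT1, BTG3 and NNT the antisense row's exons covered 300 of 300 bases, and in GATA6 they covered 230. The GC box core GGGCGG, searched on both strands, occurred 3 times in the OXCT1 window, 3 times in the BTG3 window and 2 times in the NNT window, and 45% of the 35116 windows of the table hold it. The letters CCAAT, on either strand, occurred 1 time in the GATA6 window and are found in 34.6% of windows. The E-box CACGTG occurred 1 time in the NNT window and is found in 7.26%. These matches describe the letters and do not show that a factor binds there.

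GENCODE v29 placed 257 of the 264 rows, and its gene type was antisense for 211, processed transcript for 27 and lincRNA for 15. The rows named 258 distinct partners, because PTOV1, ARAP1, COL4A2, SEMA6A, ST7 and WDFY3 each had 2 member rows. Of the placed rows, 86 lay head to head with the partner, 83 inside it, 72 tail to tail and 13 around it, while 3 were divergent without overlap. Exonic bases were shared with the partner by 245 rows, and 203 of them shared at least 100, with a median of 280 shared bases per row. The partner was the opposite gene of largest exonic overlap for 220 rows, the tie of CCND2-AS1 included. For 31 rows another gene lay opposite over more bases, and 6 rows had no exonic overlap on the other strand. STARD4-AS1, for example, shares 124 bases with STARD4 and 888 with NREP. Over all 1226 placed rows of the name pattern, the 604 with at least 100 opposite exonic bases had a median mean count of 80 reads, and the 471 without any had a median of 0.667.

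The antisense rows held more reads than the rows of their partners. The mean count of the antisense row was higher in 251 of 264 cases and at least 10 times the partner's in 198. Choosing rows for high counts favours this order by itself. Over all 1228 rows of the name pattern with a partner row in the table, whatever their count, the antisense row was higher in 558, the partner row in 596, and 74 pairs were equal. Among members, the median ratio of read counts was 32.1, with quartiles of 9.81 and 90.2. In the authors' deposited FPKM values, which divide by gene size, 163 antisense rows had a partner row with a value above 0, and the antisense row was the higher of the pair in 146, with a median ratio of 17.3. The remaining antisense rows have no such ratio. For 207 members the deposited gene size was below the annotated exonic length, which raises their FPKM and can raise this ratio. Gene sizes of the partner rows were not compared in this way. The antisense rows took 8.31% and 8.42% of all counts in KO1, 8.52% and 8.48% in KO2, and 8.04% and 8.02% in WT. Their mean counts ran from 204.8 for TPT1-AS1 to 68357 for MIF-AS1, with a median of 899.6. MIF-AS1 lies opposite MIF, the gene of a cytokine that inhibits macrophage migration, and the MIF row was listed at 0 in all 6 libraries. PCBP1-AS1, opposite a poly(rC)-binding protein, had a mean of 35744 reads.

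**Figure D1:**
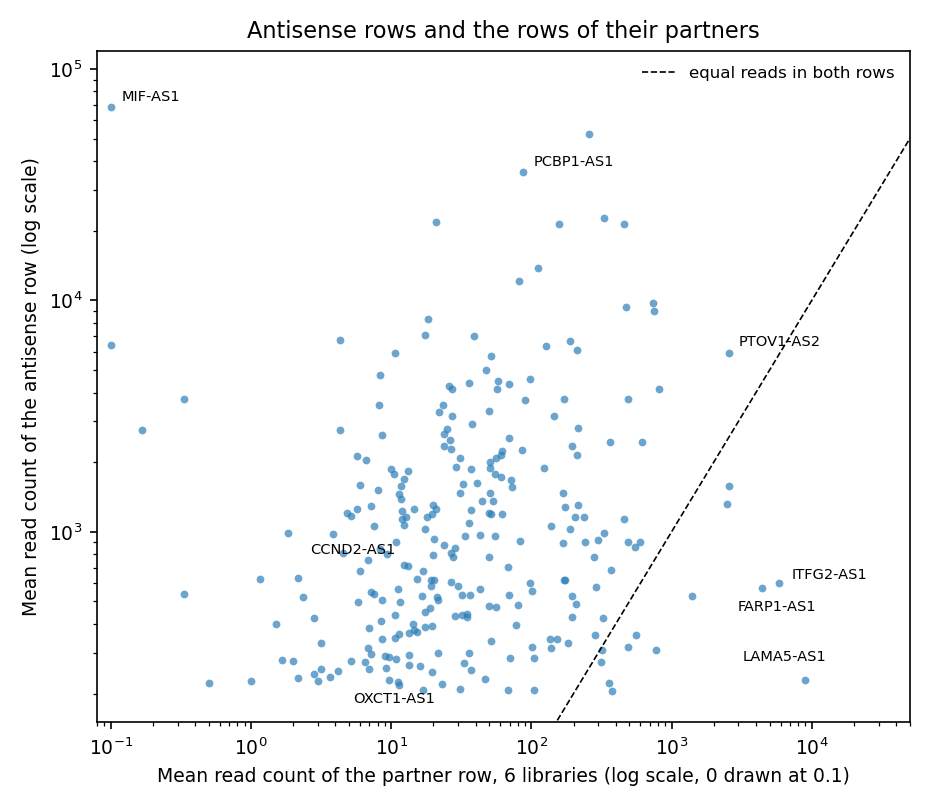
Mean read count of each antisense row (vertical, log scale) against that of its partner row (horizontal, log scale), with 1 point per row and the mean taken over 6 libraries. Of 264 points, 251 lie above the dashed line of equal reads, and LAMA5-AS1, ITFG2-AS1 and FARP1-AS1 lie far below it.

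In 13 cases the partner row held more reads than the antisense row, and several of those partner rows lie opposite a further gene. The LAMA5 row, named for a laminin chain, had a mean of 8936 reads against 229.8 for LAMA5-AS1, and it shares 244 exonic bases with ADRM1, which encodes a proteasome ubiquitin receptor. The ITFG2 row had 5817 reads and shares 781 exonic bases with FOXM1, a transcription factor of the cell cycle. The FARP1 row had 4448 reads and shares 7634 with STK24, a protein kinase. The CCDC18 row had 2493 reads and shares 675 with TMED5, a cargo receptor of the early secretory pathway.

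By deposited FPKM, FARSA-AS1 ranked highest among the members, opposite the alpha subunit of phenylalanyl-tRNA synthetase. Its deposited FPKM was 34952 and 37411 in KO1, 35076 and 34367 in KO2, and 39154 and 36823 in WT. The groups lay close together, and KO1 overlapped both others. Both KO2 values lay below both WT values. On the counts FARSA-AS1 was called lower in KO2, at a log2 fold change of -0.17 (edgeR adjusted p = 0.0189). This call was lost without KO2 replicate 1 (-0.18), KO2 replicate 2 (-0.15) or WT replicate 1 (-0.13). The gene size behind these values is 25 bases, while GENCODE v29 gives the row 241 exonic bases, and a gene size below the annotated exonic length was found for 207 members, which raises their FPKM. CARS-AS1, opposite cysteinyl-tRNA synthetase, followed with FPKM of 20756 and 21410 in KO1, 16340 and 16347 in KO2, and 16627 and 16442 in WT. KO1 stood above the other groups. The deposited gene size of CARS-AS1 is 19 bases, against 2683 annotated exonic bases. DNAJC9-AS1, named for a histone co-chaperone, had 12508 and 12693 in KO1, 13474 and 13382 in KO2, and 19079 and 19235 in WT. Both lines thus lay below WT. Its deposited gene size is 24 bases, and it was not placed on the annotation. The order of rows by FPKM depends on these small sizes and is not an order by read count or by annotated length. The remaining rows among the 8 highest averaged FPKM values of 9374 for PABPC4-AS1, 8050 for MIF-AS1, 7443 for PTOV1-AS2, 6455 for ACBD3-AS1 and 6051 for RPS6KB2-AS1.

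The count totals were 7414339 to 8391143 per library, whereas the design text states more than 240M reads, and the cause of that gap was not tested. THUMPD2 itself had 3 and 0 reads in KO1, 0 and 1 in KO2, and 1 and 2 in WT, too few to check the genotype labels. Of markers chosen for HEK293T, the row over vimentin averaged 32592 reads, the KRT8 row 3652, the row over NEFM 2446 and the row over CDH2 654.5. PAX2 had 1.17 reads and LHX1 none in their own rows, with 6.33 in the row over LHX1.

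Both knockout lines were compared with WT by edgeR's quasi-likelihood test on the counts. Rows with an adjusted p under 0.05, by the Benjamini-Hochberg method over all 14184 rows tested, are said to be called. In KO1, 54 antisense rows (20.5%) were higher than in WT, where 10.4% of all tested rows were called higher. In KO1, 63 (23.9%) were lower, against a background of 13.3%. In KO2, 56 (21.2%) were higher, against 13.6%, and 86 (32.6%) were lower, against 15.4%. The shares were near those of the 3145 other tested rows with a mean count of 200 or more, of which 20.2% were higher and 27.9% lower in KO1, and 20.7% higher and 37.1% lower in KO2. The median log2 fold change of the antisense rows was 0.004 in KO1 and -0.056 in KO2, and over all tested rows it was 0.011 and 0.022. With upper-quartile scaling the KO1 split became 73 higher and 51 lower. With an offset for the median of the surrounding 10 Mb it was 43 higher and 27 lower among the 179 rows that have such a median. Of these, 28 of the 43 and 22 of the 27 were also called without the offset.

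Of the 264 rows, 179 were called in at least 1 line and 85 in neither. The lines share their WT libraries, so a WT library that stands apart would move both. In both lines 35 rows (13.3%) were higher, against 5.79% of all tested rows and 11.4% of the other rows of that abundance. In both lines 37 (14%) were lower, against 7.72% and 19.4%. Another 8 (3.03%) were called in opposite directions, against 1.14% and 3.66%. A change of at least 2-fold in the same direction in both lines was seen in 5 rows: CCND2-AS1, STARD4-AS1 and GATA6-AS1 upwards, and FLNC-AS1 and DSG2-AS1 downwards. Whichever library was left out, 22 of the 35 higher and 23 of the 37 lower rows remained called.

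**Figure D2:**
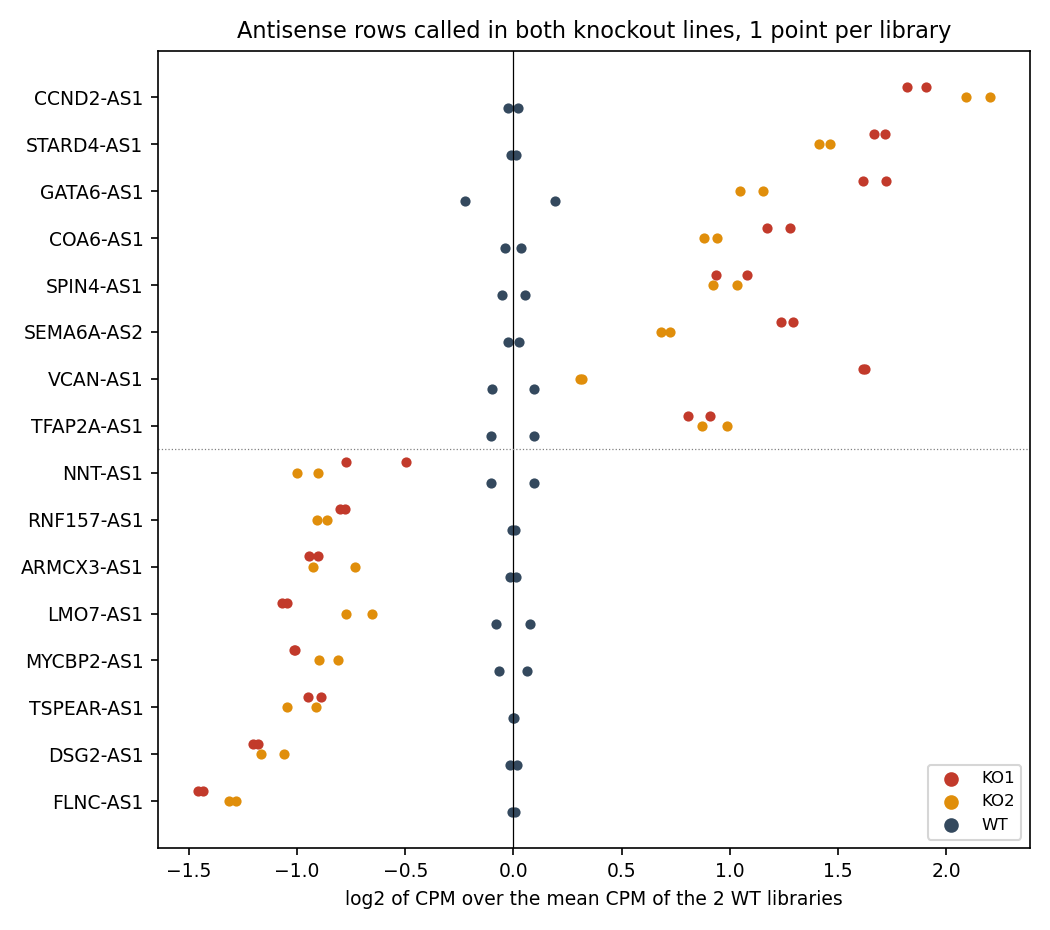
log2 of the CPM (normalized read count over library size) of each library over the mean CPM of the 2 WT libraries, for the 8 highest and 8 lowest antisense rows called in both lines, with 1 point per library. Both lines lie on the same side of WT in each of the 16 rows, and VCAN-AS1 shows the widest gap between KO1 and KO2.

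CCND2-AS1 (ENSG00000255920.2, chromosome 12, 4248765 to 4276184, minus strand of GRCh38) had the largest rise. It lies head to head with CCND2, the gene of a D-type cyclin that drives cells into S phase, and shares 126 exonic bases with it. With 2 opposite genes it shares 252 exonic bases in all, so its overlap with the second gene is as large. It had 753 and 755 reads in KO1, 1080 and 1053 in KO2, and 208 and 231 in WT. Every knockout library lay well above both WT libraries. The log2 fold change was 1.86 ± 0.09 in KO1 and 2.15 ± 0.09 in KO2 (± SE, n = 2 against 2), with edgeR adjusted p-values of 8.38e-18 and 5.69e-20. The CCND2 row had 6 and 12 reads in KO1, 4 and 8 in KO2, and 3 and 3 in WT, and was too low to be tested.

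The partners were sorted into roles after the values had been seen, and the counts below cover rows whose largest opposite overlap is the partner. They were not tested against the background, which over all tested rows is 10.4% higher and 13.3% lower in KO1 and 13.6% higher and 15.4% lower in KO2. For the other rows with a mean count of 200 or more, a closer match in abundance, it is 20.2% higher with 27.9% lower in KO1, while KO2 has 20.7% and 37.1%. Among 11 rows over genes of the cell cycle, chromosomes and DNA repair, 4 were higher (36.4%) and 1 lower (9.09%) in KO1, and 2 were higher (18.2%) and 0 lower in KO2. CCND2-AS1 and RAD21-AS1 were higher in both lines. CCND2-AS1 is counted here although another opposite gene overlaps it by as many bases as CCND2. RAD21 is a subunit of the cohesin ring that holds sister chromatids together. RAD21-AS1 had 1201 and 1207 reads in KO1, 1481 and 1496 in KO2, and 912 and 950 in WT, so that the groups did not overlap. Its log2 fold change was 0.45 ± 0.07 in KO1 and 0.54 ± 0.07 in KO2. HLTF-AS1, opposite a DNA helicase-like factor of replication fork repair, was the row that fell in KO1, by 0.74 on the log2 scale.

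Among 14 rows over transcription factors of development and differentiation, 7 were higher and 3 lower in KO1, and 5 were higher and 5 lower in KO2. The shares called higher were 50% in KO1 and 35.7% in KO2, beside 20.2% and 20.7% of rows of like abundance, and those called lower were 21.4% and 35.7%, beside 27.9% and 37.1%. ELF3-AS1, FOXD1-AS1, TFAP2A-AS1 and GATA6-AS1 were higher in both lines, and FOXD3-AS1 and MEIS1-AS2 were lower in both. GATA6 is a zinc-finger factor of endoderm and heart. GATA6-AS1 (ENSG00000266010.2, chromosome 18, 22164886 to 22169878, minus strand) had 409 and 358 reads in KO1, 281 and 319 in KO2, and 140 and 113 in WT. The log2 fold change was 1.68 ± 0.14 in KO1 and 1.11 ± 0.14 in KO2, with edgeR adjusted p-values of 3.98e-12 and 6.32e-08. The GATA6 row moved the same way, with 36 and 45 reads in KO1, 43 and 48 in KO2, and 12 and 16 in WT, and it was called in both lines at log2 fold changes of 1.61 and 1.56.

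TFAP2A is a factor of neural crest and epithelium. TFAP2A-AS1, which lies inside its partner, had 312 and 275 reads in KO1, 334 and 381 in KO2, and 176 and 165 in WT, a log2 fold change of 0.86 ± 0.13 in KO1 and 0.93 ± 0.13 in KO2. The TFAP2A row had similar counts, with 376 and 324 reads in KO1, 358 and 393 in KO2, and 195 and 224 in WT, and was also called higher in both lines. The rows within the same 10 Mb had medians of 0.63 in KO1 and 0.37 in KO2, and with these subtracted the KO1 call of TFAP2A-AS1 was lost at 0.23. MEIS1-AS2, opposite a homeodomain factor, had 224 and 191 reads in KO1, 280 and 300 in KO2, and 402 and 377 in WT. Both lines were lower, KO1 by more, at log2 fold changes of -0.83 ± 0.12 and -0.56 ± 0.12.

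Of 15 rows over genes of matrix, adhesion and cytoskeleton, 8 were lower (53.3%) and 1 higher (6.67%) in KO1, and 7 were lower (46.7%) and 2 higher (13.3%) in KO2. More rows were also called lower than higher among those of like abundance, at 27.9% against 20.2% in KO1 and 37.1% against 20.7% in KO2. FLNC-AS1, DSG2-AS1, ADD3-AS1, SPON1-AS1 and LAMA5-AS1 were lower in both lines. FLNC-AS1 (ENSG00000242902.1, chromosome 7, 128850162 to 128862626, minus strand) shares 68 exonic bases with FLNC, the gene of the actin crosslinker filamin C. It had 512 and 475 reads in KO1, 626 and 645 in KO2, and 1376 and 1468 in WT. Its log2 fold change was -1.45 ± 0.08 in KO1 and -1.30 ± 0.08 in KO2, with edgeR adjusted p-values of 4.38e-17 and 4.30e-16. The FLNC row had 25 and 23 reads in KO1, 24 and 15 in KO2, and 41 and 44 in WT, and was called lower in KO2 at -1.25, while its KO1 value of -0.74 was not called.

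DSG2 encodes desmoglein 2, a cadherin of desmosomes. DSG2-AS1 (ENSG00000264859.5, chromosome 18, 31542146 to 31556911, minus strand) had 831 and 796 reads in KO1, 1006 and 984 in KO2, and 1872 and 2056 in WT. The log2 fold change was -1.19 ± 0.07 in KO1 and -1.11 ± 0.07 in KO2. Rows within the same 10 Mb had medians of -0.86 and -0.77, and with these subtracted DSG2-AS1 was still called in both lines at -0.33 and -0.35. The part of such regional shifts in the results was not tested further.

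VCAN-AS1, opposite the proteoglycan versican, went the other way from most rows of this role. It had 1209 and 1148 reads in KO1, 540 and 565 in KO2, and 417 and 392 in WT. KO1 stood far above the other groups, with a log2 fold change of 1.62 ± 0.09, and the KO2 value was 0.31 ± 0.09. The KO2 call was lost without WT replicate 2, at 0.22, and with the regional offset, at 0.11. COL4A2-AS1 and COL4A2-AS2, opposite the same type IV collagen chain, fell in KO1 by 0.76 and 0.71 on the log2 scale. In KO2 they were at -0.11 and -0.21, not called.

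Rows over ubiquitin and proteasome genes numbered 17, of which 5 were lower (29.4%) and 0 higher in KO1, and 6 were lower (35.3%) and 3 higher (17.6%) in KO2. The share called lower lies near that of rows of like abundance, 27.9% in KO1 and 37.1% in KO2. MYCBP2-AS1, RNF157-AS1, RNF219-AS1 and PSMB8-AS1 were lower in both lines. MYCBP2 encodes a large ubiquitin ligase. MYCBP2-AS1 had 1333 and 1260 reads in KO1, 1581 and 1772 in KO2, and 2776 and 2734 in WT, at log2 fold changes of -1.01 ± 0.07 and -0.85 ± 0.07. RNF157-AS1, opposite a RING-finger ligase, had 1459 and 1398 reads in KO1, 1486 and 1616 in KO2, and 2498 and 2719 in WT. Both lines were lower, at -0.79 ± 0.07 in KO1 and -0.88 ± 0.07 in KO2. With the regional medians of -0.23 and -0.55 subtracted it was at -0.55 and -0.33, still called in both. PSMB8-AS1 lies opposite an immunoproteasome subunit and had 173 and 170 reads in KO1, 332 and 254 in KO2, and 352 and 393 in WT. It fell in KO1 by 1.04 and in KO2 by 0.48 on the log2 scale, and both KO2 libraries were above both KO1 libraries.

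Among 9 rows over mitochondrial genes, 4 were lower (44.4%) and 0 higher in KO1, and 4 were lower and 4 higher in KO2 (44.4% each), beside the like-abundance shares of 27.9% and 20.2% in KO1 and 37.1% and 20.7% in KO2. Of these rows, PITRM1-AS1 and NNT-AS1 were lower in both lines. The count leaves out COA6-AS1, which was not placed on the annotation and was called higher in each line. It also leaves out ARMCX3-AS1, which lies over a gene of the mitochondrial outer membrane and was called lower in each. The shares therefore hold for the counted rows and not for every row with a mitochondrial partner. PITRM1 is a protease of the mitochondrial matrix, and its antisense row had 3864 and 3701 reads in KO1, 6021 and 6323 in KO2, and 7069 and 7571 in WT. The order of the groups was KO1, KO2, WT without overlap, with log2 fold changes of -0.87 ± 0.06 and -0.38 ± 0.06. NNT encodes the transhydrogenase that supplies NADPH in the inner membrane. NNT-AS1 had 259 and 296 reads in KO1, 260 and 256 in KO2, and 468 and 439 in WT, at -0.63 ± 0.12 and -0.95 ± 0.12. The NNT row, with 145 and 165 reads in KO1, 204 and 209 in KO2, and 167 and 199 in WT, was not called in either line. SLC25A5-AS1, opposite an ADP/ATP carrier, was higher in KO2 at 0.67 ± 0.05, with 29105 and 31378 reads against 16929 and 17752 in WT. In KO1 it had 16474 and 16574 reads and a log2 fold change of 0.01.

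Among 18 rows over genes of RNA binding, processing and translation, 4 were higher (22.2%) and 1 lower (5.56%) in KO1, and 5 were higher (27.8%) and 4 lower (22.2%) in KO2. Rows of like abundance had 20.2% and 27.9% in KO1 and 20.7% and 37.1% in KO2. PCBP1-AS1 and RBPMS-AS1 were higher in both. PCBP1-AS1 had 33511 and 34465 reads in KO1, 41158 and 42965 in KO2, and 29855 and 32510 in WT, at log2 fold changes of 0.21 ± 0.05 and 0.30 ± 0.05. NOP14-AS1, opposite a nucleolar protein needed for the small ribosomal subunit, had 18896 and 18899 reads in KO1, 31061 and 31410 in KO2, and 17777 and 18893 in WT. Its rise in KO2 was 0.63 ± 0.05, and rows within the same 10 Mb had a KO2 median of 0.42. The KO1 value of 0.12 was not called. MBNL1-AS1, opposite a splicing regulator, was the row that fell in KO1, by 0.56 on the log2 scale, and it was not called in KO2 at -0.0046.

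Of 10 rows over genes of membrane traffic and the lysosome, 2 were higher (20%) and 4 lower (40%) in KO1, and 3 were higher (30%) and 1 lower (10%) in KO2, with the like-abundance shares again 20.2% and 27.9%, and 20.7% and 37.1%. LAMTOR5-AS1 and ACBD3-AS1 were higher in both lines, and ATP6V0E2-AS1, opposite a subunit of the vacuolar proton pump, was lower in both. ACBD3 is a Golgi protein, and its antisense row had 3938 and 3519 reads in KO1, 3530 and 3761 in KO2, and 2447 and 2503 in WT. Its log2 fold change was 0.67 ± 0.06 in KO1 and 0.42 ± 0.06 in KO2. The medians within the same 10 Mb were 0.48 and 0.46, and after subtraction KO1 was at 0.18, still called, and KO2 at -0.03, not called.

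**Figure D3:**
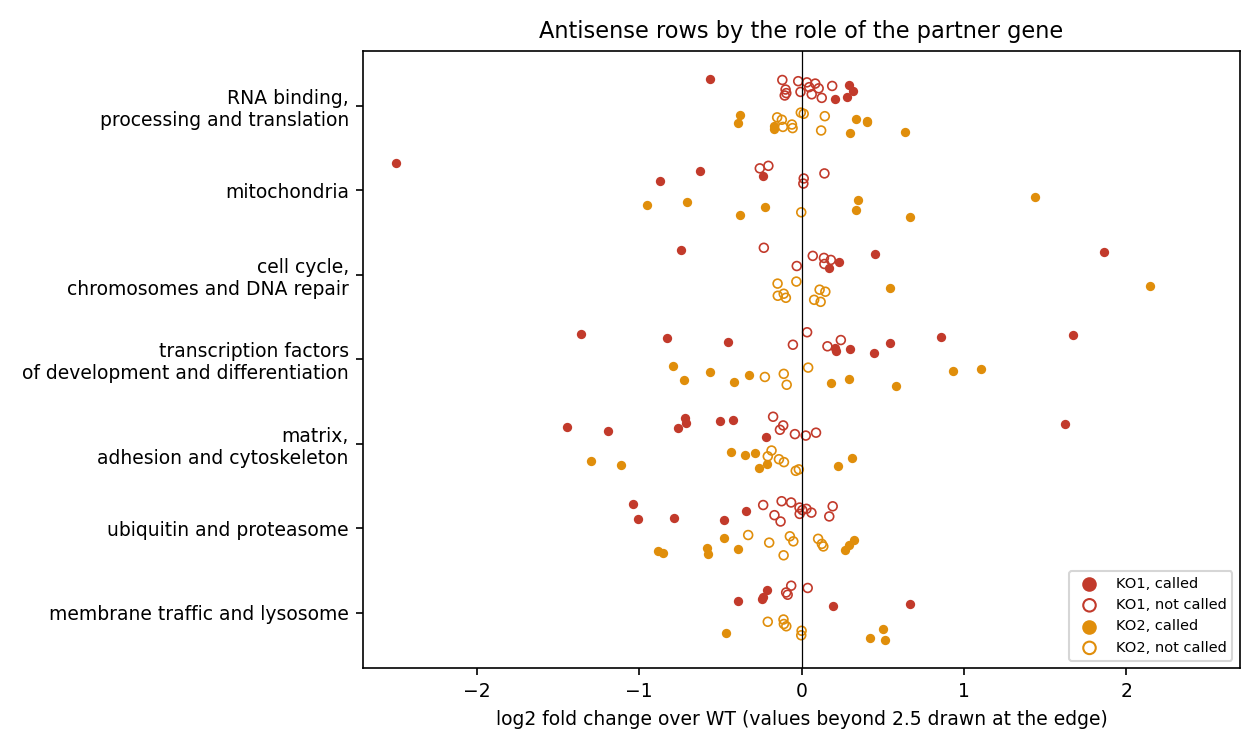
log2 fold change over WT of the antisense rows, grouped by the role of the partner, with 1 point per row and line; filled points were called by edgeR and open points were not. Of the 15 matrix, adhesion and cytoskeleton rows, 8 have a filled KO1 point left of 0 and 1 has one right of it, and OXCT1-AS1 in the mitochondrial group is drawn at the left edge.

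Other rows with large changes in both lines were not among those counted by role. STARD4-AS1 (ENSG00000246859.2, chromosome 5, 111512226 to 111739726, plus strand) had 2798 and 2732 reads in KO1, 2662 and 2710 in KO2, and 878 and 930 in WT. STARD4 is a sterol transfer protein, and NREP, the gene of larger overlap, is named for neuronal regeneration. Every knockout library lay above both WT libraries, 3.23-fold in KO1 and 2.71-fold in KO2, at a log2 fold change of 1.69 ± 0.07 and 1.44 ± 0.07 (edgeR adjusted p = 8.13e-21 and 7.62e-19). Rows within the same 10 Mb had medians of 0.30 and 0.58, and with the offset STARD4-AS1 was at 1.39 and 0.86.

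COA6-AS1, named for an assembly factor of cytochrome c oxidase and not placed on the annotation, had 2611 and 2650 reads in KO1, 2344 and 2573 in KO2, and 1175 and 1200 in WT, at 1.23 ± 0.07 and 0.91 ± 0.07. SPIN4-AS1, opposite a spindlin family gene, had 281 and 293 reads in KO1, 306 and 348 in KO2, and 140 and 162 in WT, at 1.01 ± 0.13 and 0.98 ± 0.13. In both rows the knockout libraries lay above WT without overlap. SEMA6A-AS2, opposite a transmembrane semaphorin, had 281 and 275 reads in KO1, 210 and 228 in KO2, and 116 and 129 in WT. Its KO2 value of 0.70 ± 0.15 became 0.12, not called, with the regional offset, while the KO1 value of 1.26 ± 0.14 became 0.96.

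TSPEAR-AS1, inside a gene linked to hearing and tooth development, had 372 and 337 reads in KO1, 366 and 423 in KO2, and 683 and 732 in WT, at -0.92 ± 0.09 and -0.98 ± 0.09. With regional medians of -0.49 and -0.40 subtracted it was at -0.43 and -0.58, still called in both lines. LMO7-AS1 had 970 and 899 reads in KO1, 1287 and 1474 in KO2, and 2090 and 2014 in WT, at -1.06 ± 0.07 and -0.71 ± 0.07. It shares 62 exonic bases with LMO7, a LIM domain protein, and 128 with UCHL3, a ubiquitin hydrolase. ARMCX3-AS1, which shares 460 of its 490 exonic bases with a protein of the mitochondrial outer membrane, had 575 and 559 reads in KO1, 639 and 771 in KO2, and 1085 and 1190 in WT. Its log2 fold changes were -0.92 ± 0.08 and -0.83 ± 0.08, and no library of either line reached the WT range.

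The 8 rows called in opposite directions were led by OXCT1-AS1 (ENSG00000248668.2, chromosome 5, 41870030 to 41872241, plus strand). OXCT1 is the mitochondrial enzyme that starts the use of ketone bodies, and its promoter window above lies wholly in the antisense row. OXCT1-AS1 had 1 and 12 reads in KO1, 449 and 524 in KO2, and 158 and 168 in WT. It was nearly empty in KO1, at a log2 fold change of -4.54 ± 0.31, and higher in KO2, at 1.44 ± 0.16 (edgeR adjusted p = 3.05e-14 and 2.27e-09). Over the alternative settings, those without 1 library included, the KO1 value lay between -7.15 and -3.63. The KO2 call was lost with DESeq2, at an adjusted p of 0.259 and a log2 fold change of 1.43. The OXCT1 row had 3 and 0 reads in KO1, 27 and 23 in KO2, and 5 and 10 in WT. It was called higher in KO2 at 1.59 and was not called in KO1 at -2.16.

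SLC7A11 encodes the cystine importer that feeds glutathione synthesis. SLC7A11-AS1 (ENSG00000250033.5, chromosome 4, 138057464 to 138178177, plus strand) shares 865 exonic bases with it and had 819 and 763 reads in KO1, 210 and 246 in KO2, and 502 and 504 in WT. KO1 lay above WT and KO2 below it, at 0.73 ± 0.09 and -1.28 ± 0.10 (edgeR adjusted p = 3.40e-08 and 1.13e-12). The SLC7A11 row held 2 to 14 reads per library and was not called in either line.

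BTG3 is an antiproliferative protein. BTG3-AS1 had 454 and 397 reads in KO1, 791 and 843 in KO2, and 595 and 624 in WT, at -0.44 ± 0.09 and 0.29 ± 0.08. The BTG3 row ran differently, with 165 and 156 reads in KO1, 105 and 128 in KO2, and 251 and 236 in WT. It was called lower in both lines, at -0.52 ± 0.15 and -1.20 ± 0.16, so that in KO2 the row and its partner were called in opposite directions.

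The other opposite calls were smaller. SRD5A3-AS1, opposite a reductase of dolichol synthesis, was at 0.50 in KO1 and -0.24 in KO2, MIF-AS1 at 0.34 and -0.16, and CEBPB-AS1, opposite a leucine zipper factor, at 0.21 and -0.42. LACTB2-AS1, opposite a mitochondrial ribonuclease, was at -0.24 and 0.34, and SIAH2-AS1, opposite a ubiquitin ligase, at -0.34 and 0.29. In these 5 rows and in BTG3-AS1 the call in 1 line was lost when some single library was left out, with the value nearest 0 as follows: the KO1 call for CEBPB-AS1 (0.17, without WT replicate 1) and LACTB2-AS1 (-0.17, without WT replicate 1), and the KO2 call for MIF-AS1 (-0.14, without WT replicate 1), SRD5A3-AS1 (-0.21, without KO2 replicate 2), SIAH2-AS1 (0.21, without KO2 replicate 1) and BTG3-AS1 (0.27, without WT replicate 2). With the regional offset the KO2 value of MIF-AS1 turned to 0.15.

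**Figure D4:**
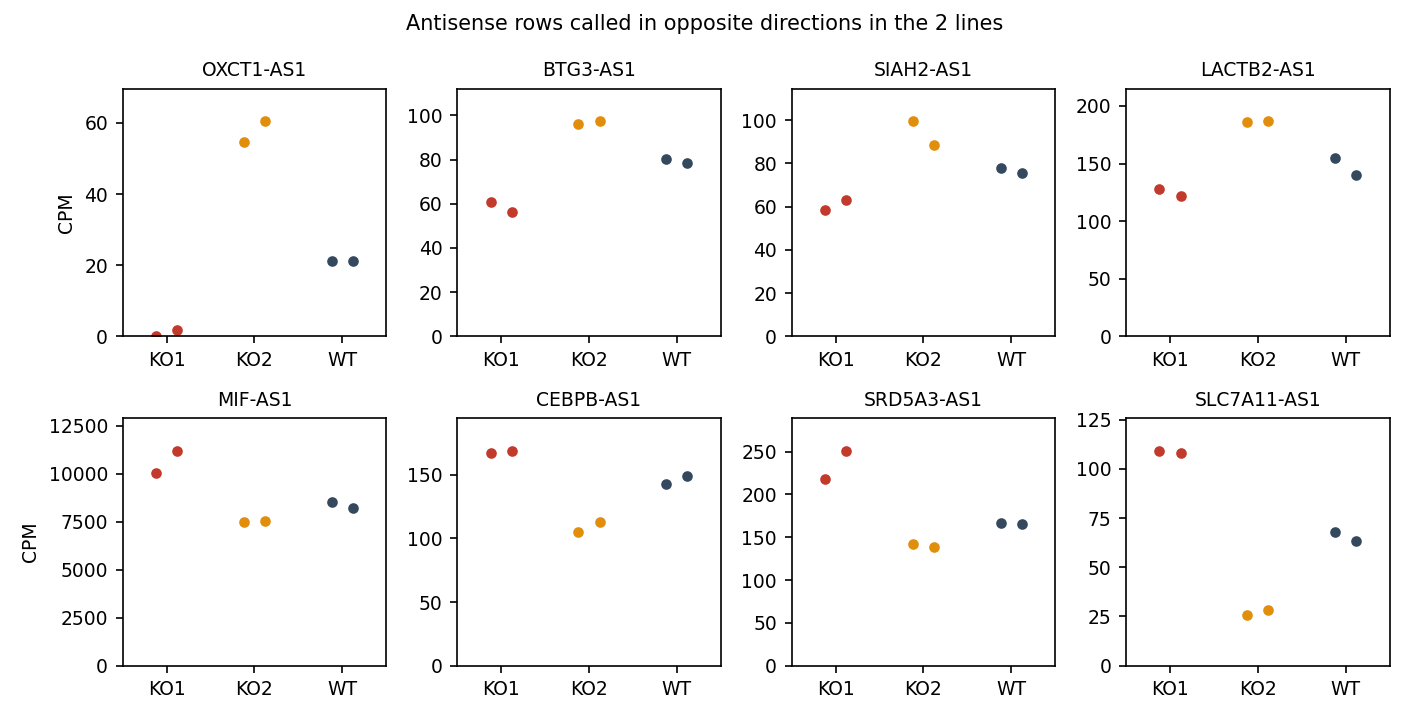
CPM (normalized read count over library size) of the 8 antisense rows called in opposite directions, with 1 point per library and each panel starting at 0. OXCT1-AS1, BTG3-AS1, SIAH2-AS1 and LACTB2-AS1 are lowest in KO1 and highest in KO2, and the other 4 rows are highest in KO1 and lowest in KO2.

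A direct test between the lines called 72 antisense rows (27.3%) higher in KO1 than in KO2, where 10.1% of all tested rows were called, and 44 (16.7%) lower, where 10.3% were. The rows of like abundance had 28.3% and 18.2%. With the regional offset the split was 51 higher and 16 lower among the 179 rows that have a regional median. Of these, 40 of the 51 and 12 of the 16 were also called without the offset. After OXCT1-AS1, at -5.98 ± 0.27, the lowest rows in KO1 relative to KO2 were NKX2-2-AS1, CBR3-AS1, SYP-AS1 and BTG3-AS1. NKX2-2-AS1, whose 638 exonic bases all lie over a homeodomain factor of neural and islet cells, had 103 and 103 reads in KO1, 306 and 326 in KO2, and 284 and 275 in WT. The difference of -1.40 ± 0.14 came with a KO1 value below WT and a KO2 value near it. CBR3-AS1, around a carbonyl reductase gene, had 218 and 184 reads in KO1, 539 and 509 in KO2, and 457 and 483 in WT, and differed by -1.17 ± 0.11. SYP-AS1, opposite the synaptic vesicle protein synaptophysin, had 186 and 180 reads in KO1, 416 and 416 in KO2, and 190 and 201 in WT. Here KO2 stood apart, and the lines differed by -0.97 ± 0.12.

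In the other direction, SLC7A11-AS1 differed by 2.01 ± 0.10 and VCAN-AS1 by 1.31 ± 0.08. LEF1-AS1, opposite a factor of Wnt signalling, had 923 and 887 reads in KO1, 570 and 570 in KO2, and 808 and 906 in WT, and differed by 0.88 ± 0.08. FAM13A-AS1 had 532 and 507 reads in KO1, 327 and 341 in KO2, and 574 and 597 in WT, and differed by 0.85 ± 0.09. MEF2C-AS2, opposite a MADS-box factor of muscle and neurons, had 248 and 255 reads in KO1, 147 and 182 in KO2, and 263 and 256 in WT, and differed by 0.83 ± 0.14. In these 3 rows KO2 was below both other groups, and KO1 was not called against WT.

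Partner rows could be tested in 211 cases, with each partner counted once, beside its most abundant member row. In KO1 21 partner rows were higher (9.95%) and 28 lower (13.3%), near the 10.4% and 13.3% of all tested rows. In KO2 31 were higher (14.7%) and 26 lower (12.3%), beside 13.6% and 15.4%. Of 90 antisense rows called in KO1 with a tested partner row, 25 had a partner row called in the same direction and 2 in the opposite one. In KO2 these were 27 and 6 of 113. No like count was made for other overlapping or neighbouring rows, so whether such sharing is particular to antisense pairs was not tested. The partner rows held 43961 to 53736 reads per library in all, against 612247 to 711885 in the antisense rows.

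Medians by chromosome lay apart from 0 on several chromosomes, with members and other rows on the same side in some and not in others. The 10 members on chromosome 15 had medians of 0.38 in KO1 and 0.33 in KO2, with 6 and 7 called higher and 0 called lower. Other chromosome 15 rows with a mean count of 200 or more also had positive medians, of 0.14 and 0.21. The 14 members on chromosome 13 had medians of -0.29 and -0.16, with 7 and 6 called lower and 0 called higher, beside -0.20 and -0.21 for the other rows there. For all tested rows the shares called higher and lower were 10.4% and 13.3% in KO1 and 13.6% and 15.4% in KO2. Rows of like abundance had 20.2% and 27.9% in KO1 and 20.7% and 37.1% in KO2. Shares called among other rows of the same chromosome were not counted. The chromosomes described were picked with these values known. On chromosome 10 the 12 members had medians of -0.22 and -0.26, beside -0.50 and -0.42, and on chromosome 7 the 6 members had a KO2 median of -0.47, beside -0.57. Elsewhere the medians parted: in KO2 the 3 members on chromosome 18 were at 0.50, beside -0.12, the 5 on chromosome 17 at -0.05, beside -0.31, and the 3 on chromosome 9 at -0.45, beside -0.07. The 16 members on chromosome 5 had a KO2 median of 0.14, beside -0.02. MYCBP2-AS1, LMO7-AS1 and both COL4A2 rows lie on chromosome 13. Whether a change of whole chromosomes or regions accounts for a row's change was not tested. Of the 35 rows higher in both lines, 27 had a regional median and 9 of them were still called in both with it subtracted. Of the 37 lower in both, 21 had one and 9 were still called.

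**Figure D5:**
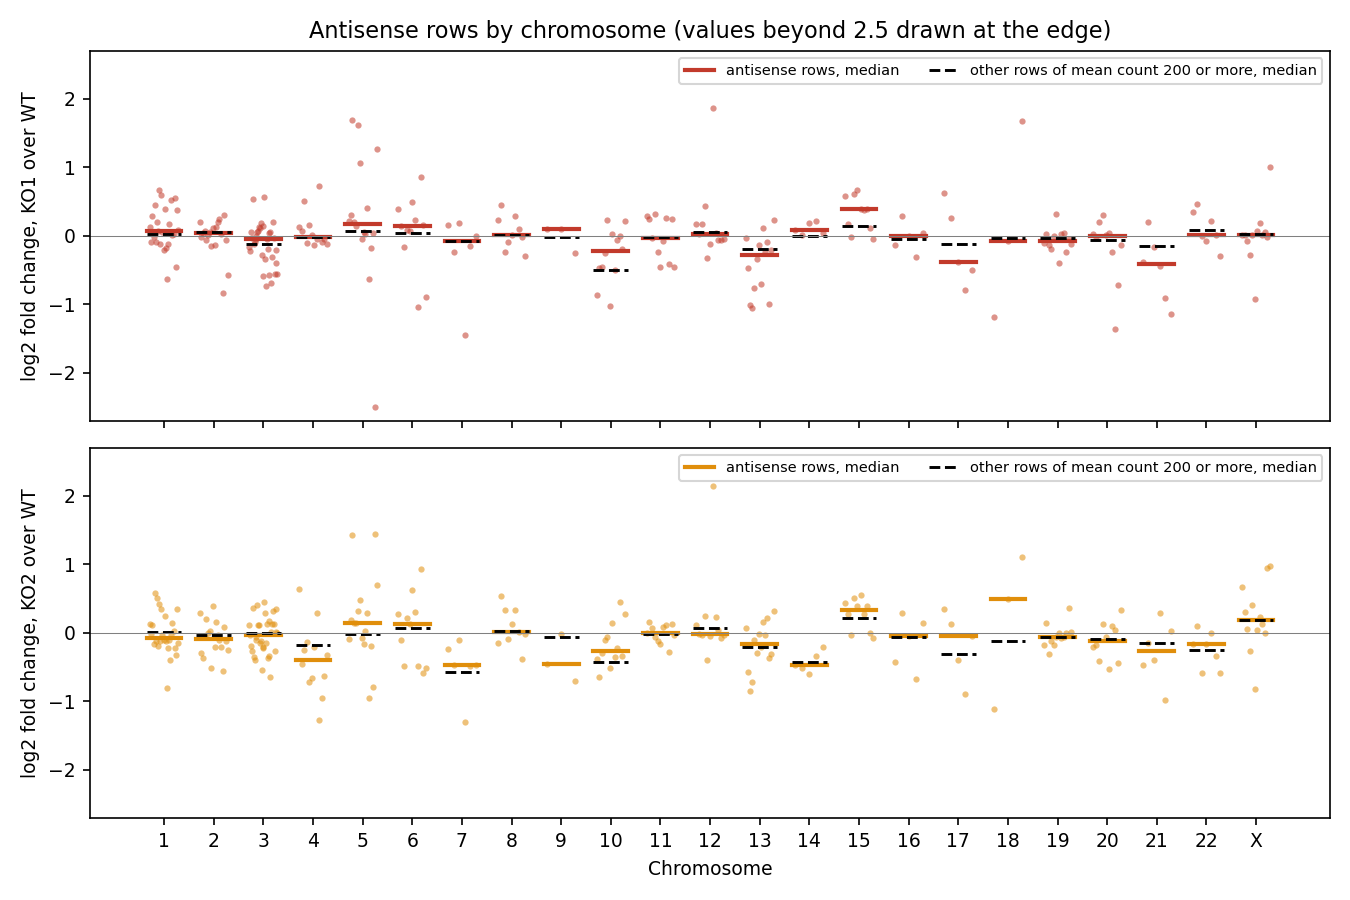
log2 fold change over WT of the antisense rows by chromosome, KO1 above and KO2 below, with 1 point per row, coloured bars for their median and dashed bars for the median of other rows with a mean count of 200 or more. On chromosome 15 both medians are above 0 in both lines, and on chromosomes 10 and 13 they are below 0.

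Families that several partners belong to were counted as well, by their own rows and by rows over at least 100 of their exonic bases. The background over all tested rows is 10.4% higher and 13.3% lower in KO1 and 13.6% and 15.4% in KO2. For rows with a mean count of 200 or more, members left out, it is 20.2% and 27.9% in KO1 and 20.7% and 37.1% in KO2. Some rows over these families are that abundant, such as PCBP1-AS1 with 35744 reads and the row over MCM2 with 16122. The counts were not tested against either background. Of 30 tested rows of proteasome subunits, 6 were higher (20%) and 0 lower in KO1 and 4 were higher and 4 lower in KO2 (13.3% each). Of 11 tested rows over them, 3 were higher (27.3%) and 2 lower (18.2%) in KO1. In KO2 3 were higher and 3 lower (27.3% each). Of 12 tested rows of eIF3 translation initiation subunits, 1 was higher and 1 lower in KO1 (8.33% each). In KO2 1 was higher (8.33%) and 2 lower (16.7%). Of 6 rows over them, 1 was higher and 1 lower in KO1 (16.7% each), and 2 were higher (33.3%) and 1 lower (16.7%) in KO2. The list of MCM genes, most of them named for minichromosome maintenance in DNA replication, also holds MCM3AP, which encodes an MCM3-associated protein. The 8 tested rows of this list gave 3 higher (37.5%) and 1 lower (12.5%) in KO1 and 4 higher (50%) and 1 lower (12.5%) in KO2. Of 3 rows over MCM genes, 0 were higher and 2 lower (66.7%) in KO1, and 1 was higher (33.3%) and 2 lower (66.7%) in KO2. PCBP1-AS1 was 1 of 2 tested rows over PCBP genes, of which 1 was higher in each line (50%). Of 2 tested PCBP rows, 0 were called in KO1 and 1 was higher (50%) in KO2.

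The authors' deposited table compares the 4 knockout libraries with the 2 WT libraries and holds all 264 rows. By the q-values of the authors' deposited table, at a threshold of 0.05, the knockout libraries were higher in 23 of them and lower in 18, and 9.88% of its 11785 rows passed. All 41 were among the 72 rows called by edgeR in both lines with the same sign. OXCT1-AS1 and SLC7A11-AS1, whose lines diverge, were not among them.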

How the data were processed

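Per the labels' protocols, TRNzol was used for total RNA and the stranded NEBNext Ultra II Directional kit for libraries (RF, first strand). The submitters' processing notes name STAR 2.7.1a, HTSeq 0.6.1p1, limma and Trim Galore, and the builds hg38 and GRCh38.p6. Neither the annotation release nor the strand option of HTSeq is given in the sources used here. The authors deposited whole-number counts per gene symbol, without normalization, and these were used for every test. The authors also deposited FPKM values with gene sizes, and log2 fold changes, p-values and q-values of all knockout against WT libraries, which are quoted as theirs.

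Groups came from the genotype labels. Counts of all 6 libraries (7414339 to 8391143) entered 1 edgeR 4.0.16 quasi-likelihood fit of 3 groups in R 4.3.3, with TMM factors and filterByExpr, which kept 14184 rows. The biological coefficient of variation was 7.57%, with 3 residual and 31.9 prior degrees of freedom. On simulated KO1 against WT counts for 13446 rows, 59% of 100 rows changed 1.5-fold and 100% of 100 changed 3-fold were recovered, with 15 unchanged rows called. The simulation gave all rows the same dispersion and changed only these rows, none of very low count, in KO1 alone. In the real counts the spread differs by row and far more rows are called, so these rates need not hold there. Rows were placed with GENCODE v29 on GRCh38. A regional median needed 15 rows with a mean count of 50 in a window of 10 Mb.

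Members, lists and tests were chosen with earlier results of these data known, and the role lists after the values. Rows named by rule were the 8 of highest FPKM, the 8 highest and 8 lowest called in both lines, those called in opposite directions, the 5 highest and 5 lowest between the lines, the 3 on each side of the count threshold, and THUMPD2. Further rows were named from the role lists, and the values of some rows are not reported here. The alternatives tried were limma-voom (limma 3.58.1), DESeq2 1.42.0, upper-quartile or RLE factors, no filter, a stricter filter (50 reads in 2 libraries), the replicate block, fits of the compared groups, the regional offset, other member sets and leaving out each library.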

Additional observations from a re-analysis of the deposited data

Results flagged for a closer look

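For 24 of the named antisense rows the change from WT differed between the lines by the direct edgeR test of KO1 against KO2. Some of these rows had been named because that test called them or because their signs were opposite. The count therefore follows in part from the choice of rows. Over all tested rows, 10.1% were higher and 10.3% lower in KO1 than KO2, and rows of like abundance had 28.3% and 18.2%. The values below are log2 fold changes of KO1 over KO2, and the cause of the differences was not tested. Transcription factor partners gave 0.57 for GATA6-AS1, 0.62 for CEBPB-AS1, 0.88 for LEF1-AS1, 0.83 for MEF2C-AS2 and -1.4 for NKX2-2-AS1. Mitochondrial and transport partners gave -5.98 for OXCT1-AS1, -0.58 for LACTB2-AS1, 2.01 for SLC7A11-AS1 and 0.25 for ACBD3-AS1. Partners of matrix and membrane gave 1.31 for VCAN-AS1, 0.56 for SEMA6A-AS2 and -0.97 for SYP-AS1. Growth and ubiquitin partners gave -0.29 for CCND2-AS1, -0.73 for BTG3-AS1, -0.63 for SIAH2-AS1 and -0.35 for LMO7-AS1. The others were 0.5 for MIF-AS1, 0.16 for PABPC4-AS1, 0.38 for CARS-AS1, 0.26 for STARD4-AS1, 0.31 for COA6-AS1, 0.74 for SRD5A3-AS1, 0.85 for FAM13A-AS1 and -1.17 for CBR3-AS1. CCND2-AS1, STARD4-AS1, COA6-AS1, GATA6-AS1, SEMA6A-AS2, VCAN-AS1 and ACBD3-AS1 were higher than WT in both lines and LMO7-AS1 was lower in both. With the regional offset the KO2 rise was no longer called for ACBD3-AS1 (-0.03), VCAN-AS1 (0.11) and SEMA6A-AS2 (0.12).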

How the results depend on the processing

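Counts of called rows stayed within 1.5 times the reported ones, with the following exceptions. The 10 Mb offset, which reaches 179 rows, gave 26 rows higher in KO2, 27 lower in KO1 and 39 lower in KO2. It also gave 14 higher and 13 lower in both lines, and 16 lower in KO1 than KO2. A mean count threshold of 400 gave 28 lower in KO1 than KO2. Similar counts need not hold the same rows. Of 43 rows higher in KO1 with the offset, 28 were also called without it. Of 51 higher in KO1 than KO2, 40 were. The same held for 17 of the 26 higher in KO2, and for 9 of the 14 higher and 9 of the 13 lower in both lines. Leaving out 1 library gave 43 to 61 rows higher and 51 to 65 lower in KO1, 43 to 64 higher and 65 to 96 lower in KO2, 26 to 39 higher and 28 to 42 lower in both lines, and 48 to 83 higher and 34 to 46 lower in KO1 than KO2. Replicate numbers did not pair the libraries (correlations of same-numbered deviations -0.096, -0.031 and -0.02 over 6425 rows). The fit with the replicate block gave 53 higher and 62 lower in KO1, 54 and 83 in KO2, 32 and 36 in both lines, and 71 and 44 between the lines. DESeq2 gave 27 higher and 31 lower in both lines.

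Signs turned for MIF-AS1 in KO2 (0.1517, called), ACBD3-AS1 in KO2 (-0.0344) and MEF2C-AS2 in KO1 (-0.0039) with the 10 Mb offset, and for SYP-AS1 in KO1 with upper-quartile factors (0.0605) and the stricter filter (0.0061). Without 1 library, values near 0 crossed it for PTOV1-AS2 in KO1 (-0.0179 to 0.0748), CBR3-AS1 in KO2 (-0.0476 to 0.107), SYP-AS1 in KO1 (-0.0362 to 0.0022), NKX2-2-AS1 in KO2 (-0.0323 to 0.114) and MEF2C-AS2 in KO1 (-0.0399 to 0.1048). The cause was not tested. With 2 libraries per group, small changes were detected incompletely in the simulation.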
